A study of Homo sapiens with 6 samples.

Results

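The transcript of NRF2, the main transcription factor of the antioxidant response, and the transcripts of 8 of its target genes were followed in cells that lost the nuclear pore protein TPR while the export receptor CRM1 was blocked. The 9 genes were listed by name as a check for oxidative effects of the auxin compound. They were NFE2L2, which encodes NRF2, and GCLC, GCLM, SLC7A11, TXNRD1, SRXN1, HMOX1, OSGIN1 and ME1, found by gene symbol among 58051 genes of the count table. All 9 were among the 16974 genes that passed the filter on low counts, so that none was lost from the test. None of the 9 passed the test for a difference between the groups, beside 0.00589% of all tested genes. In all 9 the values of the groups overlapped, whereas 4.91% of all tested genes were higher and 6.63% lower without overlap. Between replicate numbers, which both groups share, 6 of the 9 differed, beside 33.7% of all tested genes. The numbers were taken as pairs because of correlations in these same data, so this test is not independent of that choice.

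RNA-seq of total RNA was performed in the human colorectal adenocarcinoma line DLD-1. In all 6 libraries both alleles of TPR were fused to a degron that auxin activates and to fluorescent NeonGreen (AID-NeonGreen-TPR), together with the plant ligase subunit TIR1 expressed from the RCC1 locus, so that auxin directs the TPR protein to the proteasome. The LMB group (n = 3) received 200 nM Leptomycin B, which blocks CRM1, for 3 h. The LMB+auxin group (n = 3) received the same and, beginning 1 h after Leptomycin B, 1 mM auxin for 2 h, and the sample titles give the shorter time for both groups. The cells derive from genome-edited clones, and how many clones entered these libraries is not given in the sources used here. No library without Leptomycin B and no library of untagged cells with auxin was analysed here, so loss of TPR and the auxin compound itself cannot be told apart, and no oxidant-treated library showed how far these genes can rise in these cells. Total counts ran from 28261903 to 35992425 per library. The 8 colon epithelial markers examined, among them EPCAM, CDH1 and CDX2, were all expressed, with a summed level of 7179 to 7289 CPM (counts scaled to a common library total) in LMB and 7124 to 7674 CPM in LMB+auxin. Of 9 markers of immune, endothelial and stromal cells, 3 passed the filter, and the summed level of all 9 was 13.2 to 13.6 CPM and 10.8 to 14.6 CPM, with COL3A1 at 0 in the LMB+auxin libraries.

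NRF2 is a basic leucine zipper protein that KEAP1 holds in the cytoplasm and passes to the CUL3 ubiquitin ligase. Oxidants and electrophiles modify cysteines of KEAP1, NRF2 escapes destruction, enters the nucleus, pairs with a small MAF protein and binds antioxidant response elements near its targets, while BACH1 competes with it for the same elements. NRF2 is therefore controlled mostly at the level of the protein, and its activity is commonly read from the RNA of its targets. NRF2, KEAP1 and BACH1 are also known cargoes of CRM1, the receptor blocked in every culture here. The targets supply glutathione, thioredoxin reduction, NADPH and the breakdown of heme.

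The core of the antioxidant response element reads TGACNNNGC. It was searched on both strands of the RefSeq promoter windows (GRCh38.p14), each of which holds 250 bases before and 50 bases after an annotated start. Windows were present for 7 of the 9 genes, the exceptions being HMOX1 and SLC7A11, and 3 of the 7 held at least 1 match, compared with 16.1% of 27305 genes. The matches lay near GCLM, ME1 and TXNRD1, and none lay in the windows of NFE2L2, GCLC, OSGIN1 and SRXN1. They are shown because they are the letters through which NRF2, MAF and BACH1 proteins are known to act, with the 9 bases of the match in capitals and 10 bases on either side, read 5′ to 3′ on the strand that carries the match. A match describes letters and is not a measured binding site.
GCLM, chr1:93909446-93909474, plus strand, 34 bases upstream of the start: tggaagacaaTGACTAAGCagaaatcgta
ME1, chr6:83431170-83431198, minus strand, 137 bases upstream: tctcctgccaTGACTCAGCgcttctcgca
ME1, chr6:83431022-83431050, plus strand, 11 bases downstream: gctgctggggTGACGGTGCtgactgcagc
TXNRD1, chr12:104215670-104215698, plus strand, 99 bases upstream: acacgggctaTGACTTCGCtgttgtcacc
TXNRD1, chr12:104215761-104215789, minus strand, 8 bases upstream: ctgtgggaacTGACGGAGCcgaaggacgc
TXNRD1, second start, chr12:104286920-104286948, minus strand, 102 bases upstream: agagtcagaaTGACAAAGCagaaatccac

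Levels of the 9 transcripts can be set beside each other only per length, and were divided by the length of the canonical transcript in GENCODE 44. In the LMB group TXNRD1 stood highest, at 138 CPM per kb (119 to 150 over 3 libraries). SRXN1 followed at 33.8 CPM per kb (29.6 to 37.1), then NFE2L2 at 27.0 (23.1 to 32.4) and ME1 at 25.4 (24.0 to 27.4). The ranges of SRXN1 and NFE2L2, and of NFE2L2 and ME1, overlapped, so the order within these pairs is not settled by these libraries. GCLC at 11.3 CPM per kb (10.6 to 11.9) and SLC7A11 at 9.64 (7.67 to 11.7) also overlapped. Below them stood GCLM at 6.19 CPM per kb (5.67 to 7.08), HMOX1 at 4.29 (3.78 to 4.89) and, lowest, OSGIN1 at 0.965 (0.822 to 1.05). Divided by the length of all its annotated exons, NFE2L2 came to 4.41 CPM per kb and GCLC to 4.97, both under GCLM at 5.57, so the places of NFE2L2 and GCLC in this order depend on the gene model. The place of SRXN1 is uncertain as well, because 90.7% of its exonic bases are shared with another gene on the same strand.

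**Figure D1:**
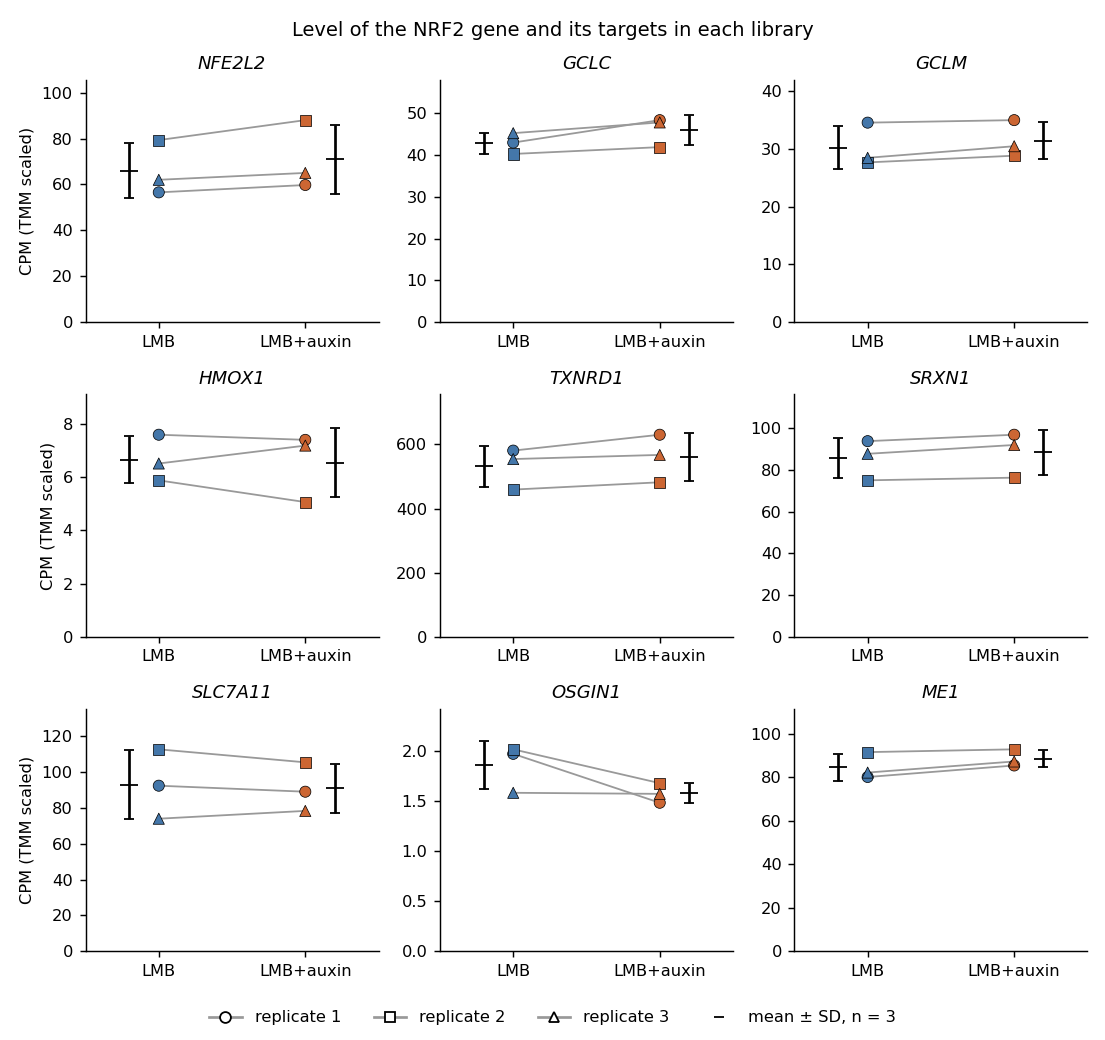
CPM on linear axes that start at 0 for NFE2L2 and its 8 targets in each of the 6 libraries, with symbols for the replicate number, lines joining equal numbers and bars for the mean ± SD of 3 libraries. In each gene the groups overlap, and replicate 2 lies at one end of both groups in all 9 genes.

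The transcript of the factor itself, NFE2L2 (ENSG00000116044, chromosome 2, 177218667 to 177392756, minus strand, 5 exons, GRCh38) measured 56.6, 79.4 and 62.0 CPM in LMB replicates 1, 2 and 3 and 59.8, 88.1 and 65.0 CPM in LMB+auxin. Replicate 2 was the highest library of each group, and the groups overlapped. The means were 66.0 ± 11.9 and 71.0 ± 15.0 CPM (SD, n = 3 each), and the log2 fold change was 0.10 (SE 0.16) with an adjusted p of 0.963 by edgeR's quasi-likelihood test with Benjamini-Hochberg adjustment over all tested genes. In bulk RNA, fewer cells with a transcript and less of it per cell cannot be told apart, here and in the values that follow. Exons of other genes cover 38.4% of the exonic bases of NFE2L2, and those of HNRNPA3, on the opposite strand, cover 23.4% of them, and the count of such a gene is uncertain because use of strand in the counting is not given in the sources used here.

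Glutathione synthesis was represented by both subunits of its rate-limiting enzyme, glutamate-cysteine ligase, and by the transporter that imports its cystine. GCLC, the catalytic subunit (ENSG00000001084, chromosome 6, 53497341 to 53616970, minus strand, 16 exons), measured 43.0, 40.2 and 45.2 CPM in LMB and 48.3, 41.9 and 47.8 CPM in LMB+auxin. Replicate 2 was lowest in each group, and LMB+auxin replicate 2 lay below 2 of the LMB libraries. The log2 fold change of 0.10 (SE 0.082) had an adjusted p of 0.954 (edgeR), and its 95% interval ran from a fold of 0.946 to 1.22. GCLM, the modifier subunit (ENSG00000023909, chromosome 1, 93885199 to 93909456, minus strand, 7 exons), measured 34.6, 27.7 and 28.5 CPM in LMB and 35.0, 28.8 and 30.5 CPM in LMB+auxin, a log2 fold change of 0.057 (SE 0.11, adjusted p = 0.969 by edgeR). Replicate 1 was the highest library of GCLM in both groups. SLC7A11, the cystine and glutamate exchanger (ENSG00000151012, chromosome 4, 138164097 to 138242349, minus strand, 12 exons), measured 92.4, 113 and 74.0 CPM in LMB and 89.0, 105 and 78.3 CPM in LMB+auxin. Here replicate 2 was highest and replicate 3 lowest in each group, and the log2 fold change was -0.033 (SE 0.15, adjusted p = 0.988 by edgeR). SLC7A11 is also a target of ATF4, and none of 7 ATF4 target genes of the integrated stress response was called by edgeR without or with pairing of the replicates, with a median log2 fold change of 0.091. Of these 7, 1 had an unadjusted p under 0.05 without pairing and 4 with it, beside 4.37% and 19.9% of all tested genes. With pairing 3 had an adjusted p under 0.05, 2 higher and 1 lower and all under the fold needed for a call, beside 4.36% of all tested genes, and by DESeq2 with pairing the adjusted p of these 3 ran from 0.317 to 0.465.

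Thiol repair included TXNRD1, the transcript with the highest level per length. TXNRD1, the cytosolic thioredoxin reductase (ENSG00000198431, chromosome 12, 104215779 to 104350307, plus strand, 17 exons), measured 581, 459 and 554 CPM in LMB and 630.4, 482 and 567 CPM in LMB+auxin. Replicate 2 was lowest in both groups, and LMB+auxin replicate 2 lay below LMB replicates 1 and 3. Means of 532 ± 64.0 and 560.0 ± 74.5 CPM (SD, n = 3 each) gave a log2 fold change of 0.075 (SE 0.11, adjusted p = 0.961 by edgeR). SRXN1, the sulfiredoxin that restores overoxidised peroxiredoxins (ENSG00000271303, chromosome 20, 646615 to 653200, minus strand, 2 exons), measured 93.7, 74.9 and 87.7 CPM in LMB and 96.8, 76.2 and 91.9 CPM in LMB+auxin. It followed the same order of libraries as TXNRD1, with a log2 fold change of 0.047 (SE 0.11, adjusted p = 0.975 by edgeR). Of the exonic bases of SRXN1, 90.7% are shared with ENSG00000270299 on the same strand, whose mean count was 2680 beside 2709 for SRXN1, so reads of these genes could not be separated.

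HMOX1, OSGIN1 and ME1 serve other ends of the response. HMOX1, the inducible heme oxygenase and a gene on which BACH1 is a strong repressor (ENSG00000100292, chromosome 22, 35380361 to 35394214, plus strand, 5 exons), measured 7.60, 5.88 and 6.51 CPM in LMB and 7.40, 5.06 and 7.19 CPM in LMB+auxin. Its highest library was in LMB and its lowest in LMB+auxin, and the log2 fold change was -0.022 (SE 0.17, adjusted p = 0.991 by edgeR), with a 95% interval from a fold of 0.761 to 1.28. ME1, the cytosolic malic enzyme that yields NADPH (ENSG00000065833, chromosome 6, 83210402 to 83431051, minus strand, 14 exons), measured 80.15, 91.6 and 82.2 CPM in LMB and 85.5, 92.9 and 87.3 CPM in LMB+auxin. Its libraries overlapped through LMB replicate 2, and the log2 fold change was 0.065 (SE 0.073, adjusted p = 0.957 by edgeR). OSGIN1, an oxidative stress induced growth inhibitor (ENSG00000140961, chromosome 16, 83931311 to 83966332, plus strand, 6 exons), was the scarcest of the 9, with counts of 57, 63 and 57 in LMB and 44, 49 and 50 in LMB+auxin. These correspond to 1.97, 2.01 and 1.58 CPM and to 1.48, 1.68 and 1.57 CPM. LMB replicate 3 lay within the LMB+auxin range. OSGIN1 had the largest difference of the 9 in size, a log2 fold change of -0.23 (SE 0.18, adjusted p = 0.954 by edgeR). Its interval, from a fold of 0.649 to 1.12, was the widest of the 9 on the log2 scale. A fall of 1.3-fold in OSGIN1 was thus not told apart from no change. The same held without pairing for HMOX1 and SLC7A11, with lower bounds of 0.761 and 0.767.

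A gene was called when its adjusted p was under 0.05 and its fold change at least 1.3 either way. By this rule 0 of the 9 genes were called in LMB+auxin against LMB, beside 0.00589% of all tested genes, and 0 of the 9 had an unadjusted p under 0.05 by edgeR, DESeq2 or limma-voom, beside 4.37% of all tested genes by edgeR and 3.10% by DESeq2. Groups that did not overlap were found in 0 of the 9, beside 4.91% of all tested genes for higher and 6.63% for lower values with auxin. The members' median log2 fold change was 0.057, that of all tested genes was -0.0027 and that of the 8 colon epithelial markers was 0.047.

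Replicate numbers were taken to pair the libraries across the groups, a choice that rests on correlations in these same data and not on the labels. The fit with the replicate number as a block had a biological coefficient of variation of 0.0406 in place of 0.0989. The same libraries gave both the choice of this block and the fit. In that paired fit 0 of the 9 genes were called, beside 1.18% of all tested genes (0.300% higher and 0.884% lower), and 0 of the 9 had an unadjusted p under 0.05, beside 19.9%. The intervals became narrow. The upper bound of the fold was 1.16 for GCLC, 1.15 for NFE2L2, 1.13 for GCLM and HMOX1, 1.12 for ME1 and TXNRD1, 1.11 for SRXN1, 1.09 for OSGIN1 and 1.05 for SLC7A11. Each of these edgeR bounds lay under the 1.3-fold threshold, whereas without pairing the bound for NFE2L2 was 1.39. By DESeq2 with pairing the SE of the log2 fold change was larger, at 0.32 in place of 0.18 for OSGIN1. For HMOX1 it was 0.17 in place of 0.10, so the narrow bounds of these genes belong to the edgeR fit. The lower bounds by paired edgeR reached 0.856 for HMOX1 and 0.670 for OSGIN1 and were 0.919 or more in the other 7.

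Within the pairs small differences pointed upward in most of the 9 genes. NFE2L2, GCLC, GCLM, TXNRD1, SRXN1 and ME1 were higher with auxin in 3 of 3 pairs, 6 of the 9, beside 21.4% of all tested genes. Of the 8 colon epithelial markers, 4 were likewise higher in 3 of 3 pairs, so such a lean was not particular to the NRF2 genes. The 6 genes were measured in the same libraries and are not separate observations. The differences of these 6 genes were 0.018 to 0.17 on the log2 CPM scale, both ends of which came from the pair of replicate 1, in GCLM and GCLC. OSGIN1 was lower in 3 of 3 pairs, beside 20.5% of all tested genes, and HMOX1 and SLC7A11 were higher in 1 of 3. None of the 6 genes passed the paired test, in which the adjusted p by edgeR was 0.26 for NFE2L2, 0.301 for GCLC and 0.326 for TXNRD1, the lowest of the 9.

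**Figure D2:**
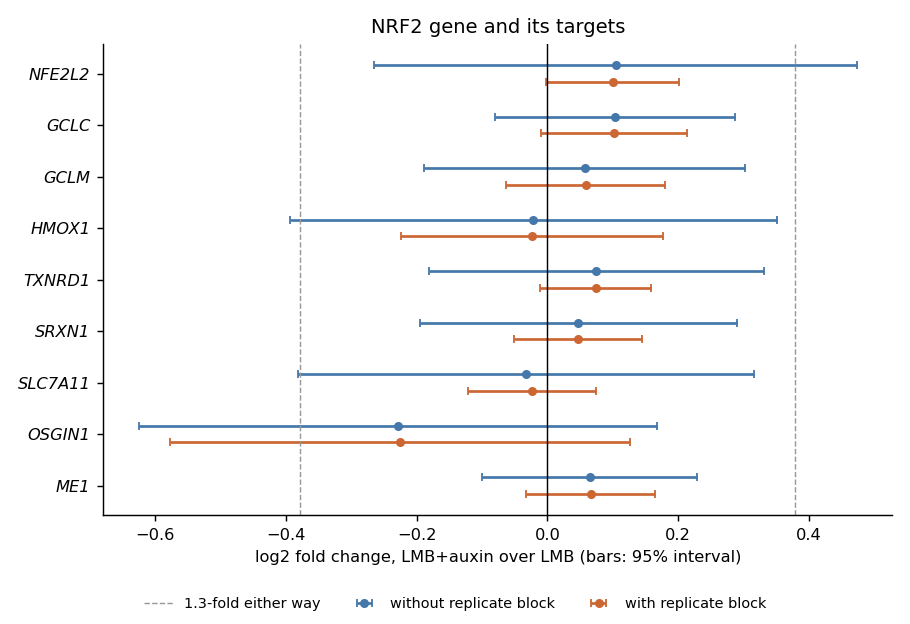
Log2 fold change of LMB+auxin over LMB for the 9 genes, with 95% intervals, from the fit without and the fit with the replicate block, and dashed lines at 1.3-fold either way. The estimates lie between -0.23 and 0.10, every interval holds 0, and pairing narrows the interval of NFE2L2 to between a fold of 0.999 and 1.15.

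The replicate number went with differences in the same genes. It was taken to pair the libraries because equal numbers correlated in these same data. The test of replicate numbers is therefore not independent of that choice. In the paired fit, 6 of the 9 genes differed between replicate numbers at an adjusted p under 0.05 (66.7%), beside 33.7% of all tested genes. The share was also high in 13 other antioxidant genes (69.2%) and 7 ATF4 targets (85.7%). It was 35.7% in 14 regulators of NRF2 and 37.5% in the 8 colon epithelial markers. The adjusted p of this edgeR test was 1.7e-11 for NFE2L2, 5.2e-11 for SLC7A11, 3.7e-08 for TXNRD1, 1.3e-05 for SRXN1, 0.0015 for GCLM and 0.00848 for HMOX1. GCLC (0.0672), ME1 (0.0748) and OSGIN1 (0.675) did not pass. The labels do not say what the replicate numbers share, and the cause of these differences was not tested.

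The factor and its targets did not order the replicates the same way. Replicate 2 was the lowest of both groups in GCLC, GCLM, HMOX1, TXNRD1 and SRXN1, 5 of the 9, beside 28.6% of all tested genes, and the highest of both groups in NFE2L2, SLC7A11, OSGIN1 and ME1, 4 of the 9, beside 27.0%. Against the mean of replicates 1 and 3, a contrast chosen after the values were seen and therefore not tested, NFE2L2 stood 0.46 higher on the log2 CPM scale in replicate 2 and SLC7A11 0.39 higher. HMOX1 stood at -0.39, TXNRD1 at -0.31, SRXN1 at -0.29, GCLM at -0.18 and GCLC at -0.16. Over the 6 libraries, which share their replicate numbers in pairs, Pearson's r of log2 CPM was 0.99 between TXNRD1 and SRXN1, 0.93 between NFE2L2 and ME1, -0.93 between NFE2L2 and SRXN1 and -0.95 between NFE2L2 and HMOX1.

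Most of the other antioxidant genes listed leaned the opposite way from TXNRD1 and SRXN1 in replicate 2. Of 21 further NRF2 targets that passed the filter, 14 had replicate 2 as the highest library in both groups and 2 as the lowest. Over all tested genes these shares were 27.0% and 28.6%. The median of the 21 was 0.20, and 16 of 21 (76.2%) differed between replicate numbers, beside 33.7% of all tested genes. FTH1, the ferritin heavy chain, stood 0.62 higher and BLVRB, a biliverdin reductase, 0.49 higher, and both genes were named after their values were seen. PRDX1, a peroxiredoxin, stood at -0.13 and TXN, thioredoxin itself, at -0.11, on the side of TXNRD1 and SRXN1. Related genes were divided. PRDX3 stood at -0.097 and PRDX4 at -0.21, but PRDX2 at 0.31, PRDX5 at 0.51, PRDX6 at 0.10 and TXN2 at 0.31. Among 13 antioxidant genes not chosen as NRF2 targets the median was 0.12. Among the 7 ATF4 targets it was 0.51, with 6 of the 7 highest in replicate 2 of both groups, beside 27.0% of all tested genes.

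**Figure D3:**
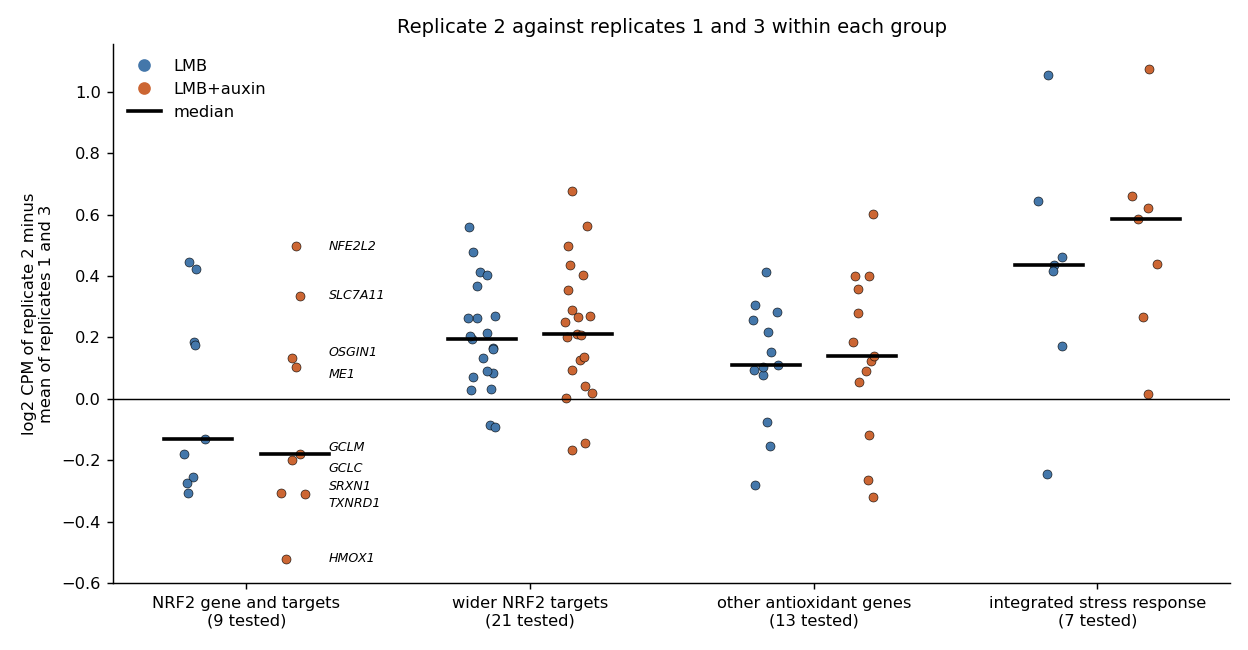
Difference of replicate 2 from the mean of replicates 1 and 3 on the log2 CPM scale, within each group, for the 9 NRF2 genes (named beside the LMB+auxin points), 21 further NRF2 targets, 13 other antioxidant genes and 7 integrated stress response genes, with bars at the median. NFE2L2 and SLC7A11 lie above 0 in both groups, and GCLC, GCLM, HMOX1, TXNRD1 and SRXN1 lie below 0 in both.

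The same 21 further targets showed no change with auxin that passed the test. Of 26 listed, GPX2, AKR1B10, AKR1C1, AKR1C2 and AKR1C3 lay below the filter. By edgeR 0 of the 21 were called and 0 had an unadjusted p under 0.05, beside 0.00589% and 4.37% of all tested genes. With pairing 0 were called and 1 had an unadjusted p under 0.05, beside 1.18% and 19.9%. By DESeq2 with pairing 3 had an unadjusted p under 0.05, beside 7.92% of all tested genes. The median log2 fold change was 0.050, with 16 positive and 5 negative values between -0.13 and 0.21. NQO1, the quinone reductase often used to read NRF2 activity, measured 276, 277 and 211 CPM in LMB and 306, 273 and 230.2 CPM in LMB+auxin, with overlapping groups and a log2 fold change of 0.083 (SE 0.13, adjusted p = 0.961 by edgeR). NQO1 answers to the aryl hydrocarbon receptor as well. GSR, glutathione reductase, measured 171, 178 and 167 CPM in LMB and 187, 187 and 182 CPM in LMB+auxin. The groups of GSR did not overlap, as in 4.91% of all tested genes for higher values. Its log2 fold change of 0.11 (SE 0.061) had an adjusted p of 0.954, or 0.15 with pairing (edgeR). ABCC2, an export pump for conjugates, had a log2 fold change of 0.21 (SE 0.19, adjusted p = 0.954 by edgeR) at a level of 1.73 to 2.94 CPM. With 1 library left out it ran from 0.064 (LMB+auxin replicate 2) to 0.35 (LMB replicate 3), with 0.095 without LMB replicate 1. PRDX1 had a log2 fold change of 0.083 (SE 0.076, adjusted p = 0.954 by edgeR). The median log2 fold change of the 13 other antioxidant genes was -0.017. Of these 0 were called with 0 at an unadjusted p under 0.05, with and without pairing, beside the same edgeR shares of all tested genes. Within them PRDX6 had a log2 fold change of 0.057, PRDX4 of 0.064 and catalase (CAT) of 0.033.

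Regulators of NRF2 and proteins that share its binding sites formed a list of 14 genes. By edgeR 0 of the 14 were called in either fit, beside 0.00589% of all tested genes without pairing and 1.18% with it. Without pairing 6 had an unadjusted p under 0.05, beside 4.37% of all tested genes, and with pairing 8, beside 19.9%. With pairing 5 had an adjusted p under 0.05, 4 lower and 1 higher, all under the 1.3-fold threshold. Of all tested genes 4.36% reached that adjusted p alone. The median log2 fold change over the 14 was -0.044. BACH1, the repressor that competes with NRF2, measured 99.8, 107 and 102 CPM in LMB and 94.7, 83.3 and 89.4 CPM in LMB+auxin. All 3 LMB+auxin libraries lay below all 3 LMB libraries, as in 6.63% of all tested genes. BACH1 changed by -0.21 (SE 0.070) on the log2 scale, and edgeR gave it an adjusted p of 0.954 without and 0.00494 with pairing. BACH2, NFE2L3, NFE2L1 and CUL3 were named after their values were seen. BACH2 had a log2 fold change of -0.26 and NFE2L3 of 0.15, with overlapping groups. Their adjusted p by paired edgeR was 0.104 and 0.0751. NFE2L1 was lower without overlap, and its edgeR p was 0.0386 unadjusted without pairing and 0.052 adjusted with it. CUL3 was higher without overlap, as in 4.91% of all tested genes, and its corresponding values were 0.194 and 0.267.

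The small MAF genes encode partners that NRF2 and BACH1 share. MAFF measured 21.8, 25.1 and 20.5 CPM in LMB and 15.8, 19.7 and 17.7 CPM in LMB+auxin. It was lower without overlap, as were 6.63% of all tested genes, and fell to a fold of 0.79 (adjusted p = 4.4e-04 by paired edgeR). MAFG measured 46.2, 42.1 and 41.5 CPM in LMB and 37.2, 37.0 and 39.1 CPM in LMB+auxin, again without overlap, at a fold of 0.874 (adjusted p = 0.0336 by paired edgeR). MAFK was named after its values were seen. It measured 29.9, 22.8 and 24.6 CPM in LMB and 23.0, 17.6 and 21.4 CPM in LMB+auxin, at a fold of 0.802 (adjusted p = 6.3e-04 by paired edgeR), and its groups overlapped through LMB replicate 2. All 3 small MAF genes were lower with auxin in 3 of 3 pairs.

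On the side of protein destruction stood BTRC, a substrate adaptor of a ubiquitin ligase that can recognise phosphorylated NRF2. Of the 5 genes that passed with pairing it was the 1 that was higher, and it was likewise named after its values were seen. It measured 19.9, 21.2 and 19.6 CPM in LMB and 25.2, 23.4 and 22.1 CPM in LMB+auxin. It was higher without overlap, as were 4.91% of all tested genes, at a fold of 1.17 (adjusted p = 0.037 by paired edgeR). KEAP1 measured 90.4, 90.0 and 89.3 CPM in LMB and 77.9, 90.6 and 88.9 CPM in LMB+auxin. Only LMB+auxin replicate 1 stood below the others in KEAP1, and its log2 fold change was -0.068 (SE 0.073) with an adjusted p of 0.954 without and 0.448 with pairing (edgeR). The 5 regulator differences that passed, in BACH1, MAFF, MAFG, MAFK and BTRC, rest on the paired edgeR fit. Without pairing none of them passed, and by DESeq2 with pairing their adjusted p ran from 0.101 to 0.362, beside 0.548% of all tested genes with one under 0.05. With 1 replicate pair left out, 3 of the 5 passed without replicate 1 (BACH1, MAFF and MAFK) and 2 without replicate 2 or replicate 3 (MAFF and MAFK).

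**Figure D4:**
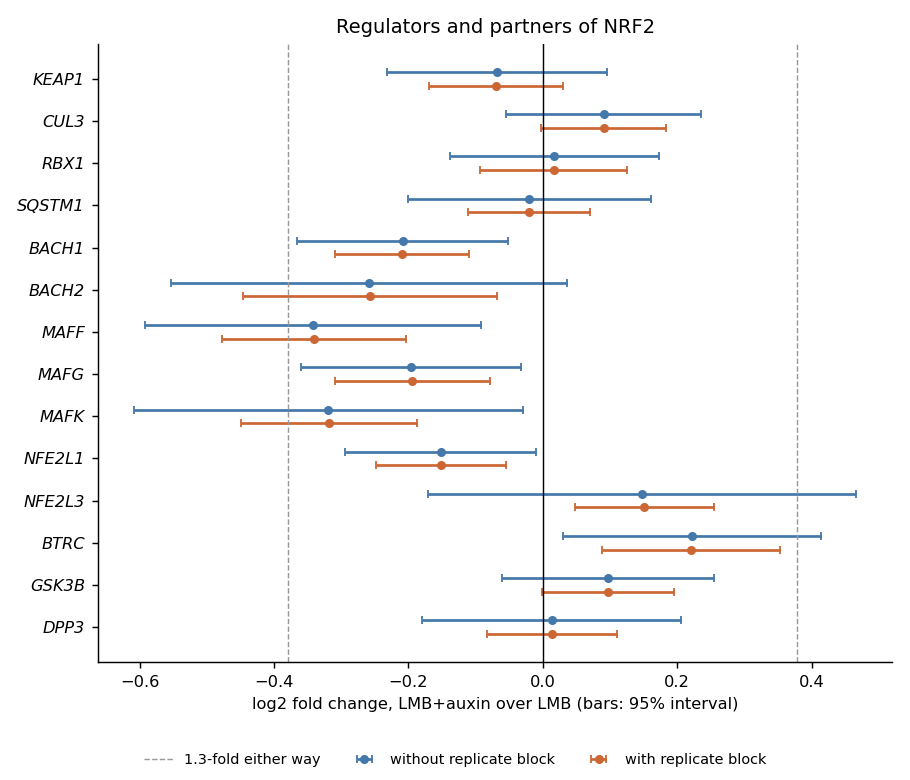
Log2 fold change of LMB+auxin over LMB for the 14 regulators of NRF2, with 95% intervals, from the fits without and with the replicate block. MAFF, MAFK, BACH1 and MAFG lie to the left of 0 and BTRC to the right in both fits.

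The antioxidant genes can be set beside the aryl hydrocarbon receptor pathway, which senses many aromatic compounds. CYP1A1, a target of the aryl hydrocarbon receptor, measured 111, 63.8 and 114 CPM in LMB and 238, 208 and 199 CPM in LMB+auxin, a log2 fold change of 1.16. Its adjusted p was 0.644 without and 0.181 with pairing by edgeR, and 8.0e-07 without and 0.00148 with pairing by DESeq2. TIPARP of the same pathway measured 162, 145 and 179.7 CPM in LMB and 268, 234 and 243 CPM in LMB+auxin, a log2 fold change of 0.61. Its adjusted p was 0.261 without and 4.4e-19 with pairing by edgeR, and 7.5e-06 without and 7.5e-21 with pairing by DESeq2. CYP1B1 and AHRR, also listed for this pathway, had log2 fold changes of 0.35 and 0.16. Their adjusted p by edgeR was 0.954 for both without pairing, and 2.6e-07 and 0.0953 with it. By DESeq2 neither passed without pairing, with an adjusted p of 0.25 for CYP1B1. With pairing the DESeq2 values were 6.1e-06 for CYP1B1 and 0.414 for AHRR.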

How the data were processed

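Per the labels and the study's methods, total RNA depleted of ribosomal RNA was sequenced as paired-end libraries. The authors aligned the reads to GRCh38 with STAR and counted them per Ensembl gene with featureCounts, and the deposited values are raw counts as whole numbers, without normalization. The submitters' processing notes name CASAVA 1.8.2, STAR 2.6.1c and featureCounts 1.5.2. The strand setting and the rule for reads that match several places are not given in the sources used here, so overlapping genes are uncertain. Of 58051 genes, 18780 had no count in any library. Symbols, coordinates and exons came from GENCODE 44 (GRCh38), which named 56948 identifiers (98.1%), and SOD2 of the antioxidant list found no match.

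Genes with CPM above 1 in at least 3 of 6 libraries were kept. LMB+auxin (n = 3) was compared with LMB (n = 3) by edgeR 4.0.16 in R 4.3.3 on the deposited counts, using TMM scaling and the two-sided quasi-likelihood test with Benjamini-Hochberg adjustment over all 16974 tested genes. CPM used the library totals scaled by the TMM factors, and log2 CPM a prior count of 2. A call needed an adjusted p under 0.05 and a fold of at least 1.3, the size of change the study used. DESeq2 1.42.0, limma-voom (limma 3.58.1), other scalings and filters, and leaving out libraries were alternatives. The study's methods describe 3 independent biological replicates, while the labels do not say that they were separate cultures.

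Groups shared replicate numbers. Deviations from the group means correlated at 0.531, 0.691 and 0.273 for replicates 1, 2 and 3, and each library correlated best with its own number, so the numbers were taken to pair the libraries. This rests on the data and not on the labels, and the numbers were used as a block in a further fit.

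The genes and lists were chosen with earlier results of these data known. Named genes were the 9 NRF2 genes, KEAP1, BACH1, NQO1, CYP1A1 and TIPARP, any called gene and the 3 genes of lowest p in each list (regulators, further targets, other antioxidant genes), and the 5 genes most like the mean pattern of the 9.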

Additional observations from a re-analysis of the deposited data

How the results depend on the processing

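None of the 9 NRF2 genes was called in any of 18 alternative settings, and their lowest adjusted p there was 0.213. DESeq2 with the block gave OSGIN1 no adjusted p. Of the 162 log2 fold changes of these genes under the alternatives, 12 had the opposite sign, all with libraries left out, and GCLC, ME1 and OSGIN1 had none. With 1 library left out, the log2 fold change ran from -0.080 (LMB+auxin replicate 2 out) to 0.26 in NFE2L2, from -0.027 (LMB+auxin replicate 1 out) to 0.16 in GCLM, and from -0.12 to 0.080 (LMB replicate 1 out) and 0.13 (LMB+auxin replicate 2 out) in HMOX1. It ran from -0.019 (LMB+auxin replicate 1 out) and -0.013 (LMB replicate 2 out) to 0.17 in TXNRD1, from -0.032 (LMB replicate 2 out) and -0.024 (LMB+auxin replicate 1 out) to 0.14 in SRXN1, from -0.17 to 0.069 (LMB+auxin replicate 3 out) and 0.14 (LMB replicate 2 out) in SLC7A11, and from -0.036 (LMB replicate 3 out) and -0.018 (LMB+auxin replicate 1 out) to 0.19 in NQO1. With the replicate block, HMOX1 was 0.059 and SLC7A11 0.020 without replicate 2, and KEAP1 0.000358 without replicate 1. The cause of these sign changes was not tested. Over all genes tested (16974 with all libraries and the filter), 1 was called by edgeR without the block, 201 with the replicate block, 11 by DESeq2, 31 by DESeq2 with the block, 39 without the filter on low counts, 0 with library size alone (737 at an unadjusted p under 0.05), 0 to 5 with 1 library left out, and 133, 134 and 158 with the block and 1 replicate number left out. Of the 4 aryl hydrocarbon receptor genes, 0 were called without the block, 1 with it, 2 by DESeq2 with or without it, 1 without the filter, 0 to 1 with 1 library left out, and 1 to 2 with the block and 1 number left out. Of the 14 regulators, 0 to 1 were called with the block and 1 number left out, the call being MAFF without replicate 3. The block changed no call among the other lists. Among the 9 NRF2 genes OSGIN1 had the fewest counts, 44 to 63 per library, and the widest interval on the log2 scale.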

Other observations

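The 5 genes outside the lists whose log2 CPM most resembled the mean centred pattern of the 9 NRF2 genes over the 6 libraries, among 10423 genes with a mean of at least 10 CPM, were TMEM65 (Pearson's r 0.994), TBC1D12 (0.991), PRXL2C (0.980), BCL2L2-PABPN1 (0.980) and DGKE (0.972). That mean pattern spanned only -0.070 to 0.050 on the log2 scale, from LMB replicate 3 to LMB+auxin replicate 1, since genes that were high and genes that were low in replicate 2 offset each other in it. These values describe 6 libraries that share replicate numbers and total depth, and they were not tested.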
